A study of Mus musculus with 6 samples.

Results

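Glycolysis and the pentose phosphate pathway were represented by 37 genes, which cover glucose uptake, each step from hexokinase to lactate dehydrogenase, lactate export, the kinases that switch off pyruvate dehydrogenase, and both branches of the pentose phosphate pathway. They were taken by symbol from the deposited count table and occupied 38 of its 54532 rows, because Aldoa occurs under 2 gene identifiers. RNA came from TM3 cells, a mouse line derived from testicular Leydig cells, in 6 libraries. The 3 control libraries carried the genotype label WT and were described as overexpression controls, and the 3 others carried the label A20 overexpression. The gene of A20 is Tnfaip3, and its protein edits ubiquitin chains and so damps NF-kB signalling. The series asked how its overexpression changes expression in these cells. How A20 was expressed, whether the control cells held an empty vector, whether a line was 1 clone and whether libraries of a group came from separate cultures are not stated, so p-values measure the spread between these libraries, which may be technical. In bulk RNA, fewer cells with a transcript and less of it per cell cannot be told apart.

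Glycolysis converts glucose to pyruvate in the cytosol, and lactate dehydrogenase and the monocarboxylate transporters then turn pyruvate into exported lactate. Its flux is set mainly at glucose uptake, hexokinase and phosphofructokinase, the latter through fructose 2,6-bisphosphate made by the PFKFB enzymes. Pyruvate dehydrogenase kinases inactivate pyruvate dehydrogenase, which uses pyruvate inside the mitochondrion. The pentose phosphate pathway branches off at glucose 6-phosphate and yields NADPH, which steroid-making cells such as Leydig cells use in the cytochrome P450 reactions of androgen synthesis, and ribose 5-phosphate for nucleotides.

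Total counts ran from 13841287 to 16917979 per library. Levels are CPM, a gene's count scaled to the library's total, always in the order of replicates 1, 2 and 3. The lowest level of any member row in any library was 1.81 CPM, above the 0.177 to 0.217 CPM that a count of 0 would have allowed (3 counts, counting error only). Tnfaip3 was at 31.0, 11.9 and 15.2 CPM among controls, with 41.0, 33.7 and 43.6 CPM for A20 overexpression, so every A20 library lay above every control. Control replicate 1 stood apart from the rest. Its log2 CPM correlated with the other libraries at 0.913 to 0.935 over 13350 genes, against 0.958 to 0.987 among the others, and its median gene lay 0.16 higher on the log2 scale. The 8 Leydig cell markers summed to 2039 CPM in it and to 3.97 to 7.86 CPM in the other 5 libraries. Comparisons are therefore given over all 6 libraries and over the 5 without control replicate 1.

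Over all 6 libraries no glycolytic or pentose phosphate gene passed the test (0 of 38 rows in either direction, edgeR quasi-likelihood F test with Benjamini-Hochberg adjustment over all genes, threshold 0.05). Of all 13350 genes, 0.00749% were called higher and 0.00749% lower in the A20 libraries (0.015% in either direction). Fitted log2 fold changes, A20 over control, ran from -1.50 for Pdk1 to 0.51 for Pdk2, with 16 rows above 0 and 22 below. Their median was -0.11, beside -0.05 over all genes. At an unadjusted p under 0.05 stood 1 of 38 rows higher, Pdk3, and 2 of 38 lower, Ldhb and Pdk4. Among all 13350 genes 504 (3.78%) were higher and 840 (6.29%) lower at that level. DESeq2 called no member, beside 0.351% of all genes higher and 0.683% lower.

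Without control replicate 1, Pfkl, the liver-type phosphofructokinase, and Eno1, the widespread enolase, rose in the A20 libraries, and Pfkfb3, the main producer of fructose 2,6-bisphosphate in many proliferating cells, fell. The remaining 35 rows did not pass. The background was 1.92% of 13658 genes called higher and 2.68% called lower (4.6% in either direction). The median log2 fold change over the 38 rows was 0.19, with 28 rows above 0, and that over all genes was 0.00 (-0.0028). With offsets for GC content and length the members' median was 0.12. Groups did not overlap in CPM in 18 rows that were higher in the A20 libraries and in 4 that were lower, which is 47.4% and 10.5% of the rows, beside 20.9% and 16.3% of the 13044 genes that averaged 1 CPM or more. Those genes were not matched to the members in abundance, and 17 of the 38 member rows averaged at least 100 CPM over the 5 libraries. At an unadjusted p under 0.05 stood 10 of the 38 rows higher and 4 of the 38 lower. Among all 13658 genes 1421 (10.4%) were higher and 1525 (11.2%) lower at that level. All 3 calls were lost when control replicate 2 or any 1 A20 library was left out as well, and none passed on the deposited FPKM. The share of all genes called was 3.51% without control replicate 2, 1.06% to 1.42% without 1 A20 library, and 1.3% to 1.72% on FPKM. Between both fits, 13 rows changed from below 0 to above 0, and 1 row, Pfkm, changed the other way.

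**Figure D1:**
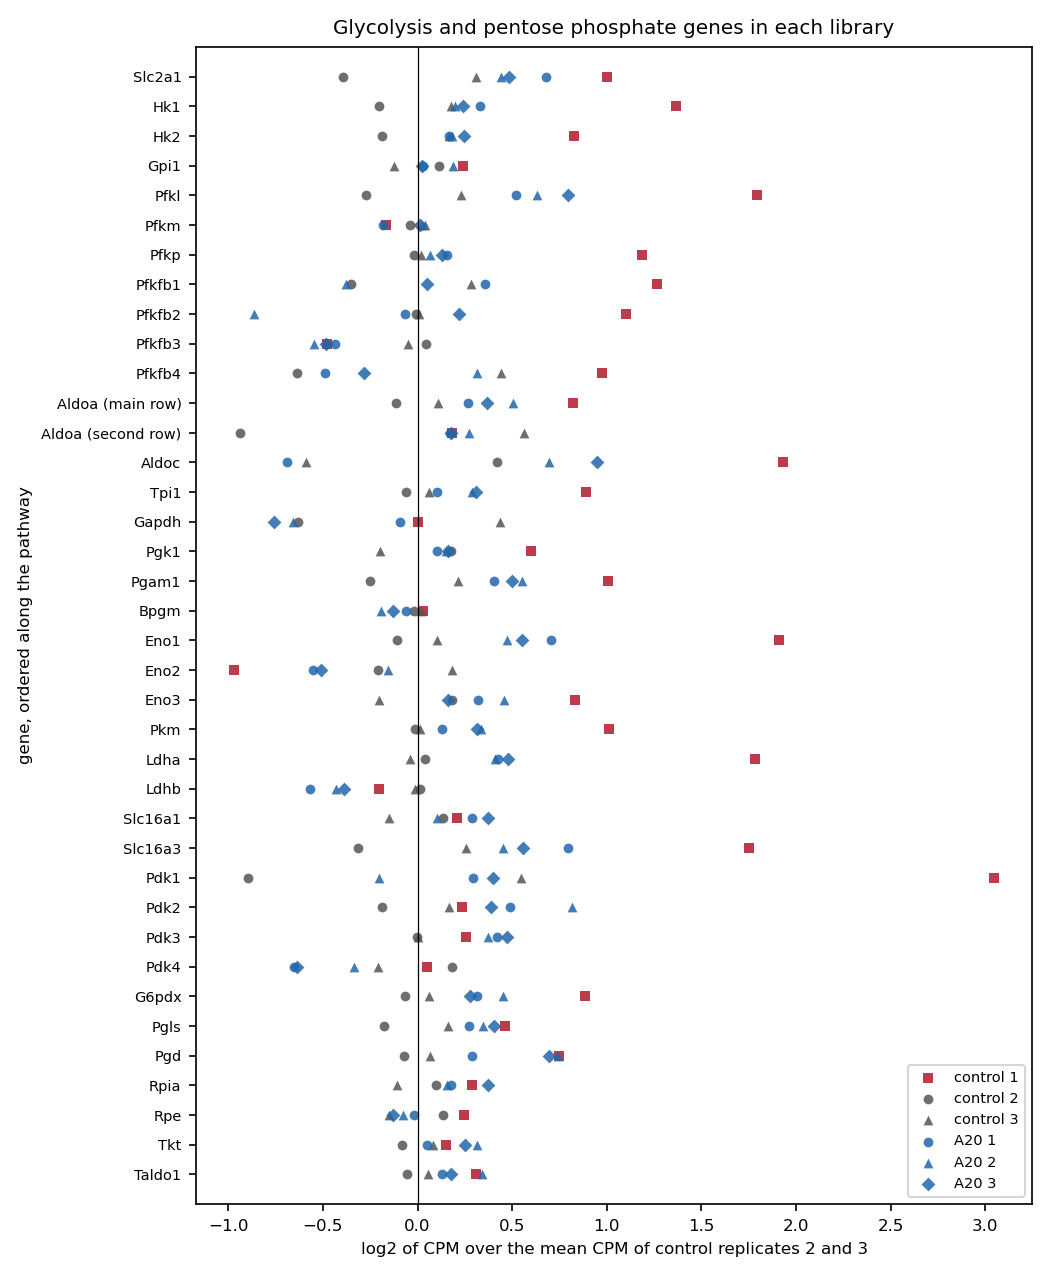
Level of each of the 38 member rows in each library, as the log2 of its CPM over the mean CPM of control replicates 2 and 3 (horizontal axis), with genes in pathway order (vertical axis). Control replicate 1 (red squares) lies above all other libraries in 25 rows and reaches the largest distance at Pdk1.

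**Figure D2:**
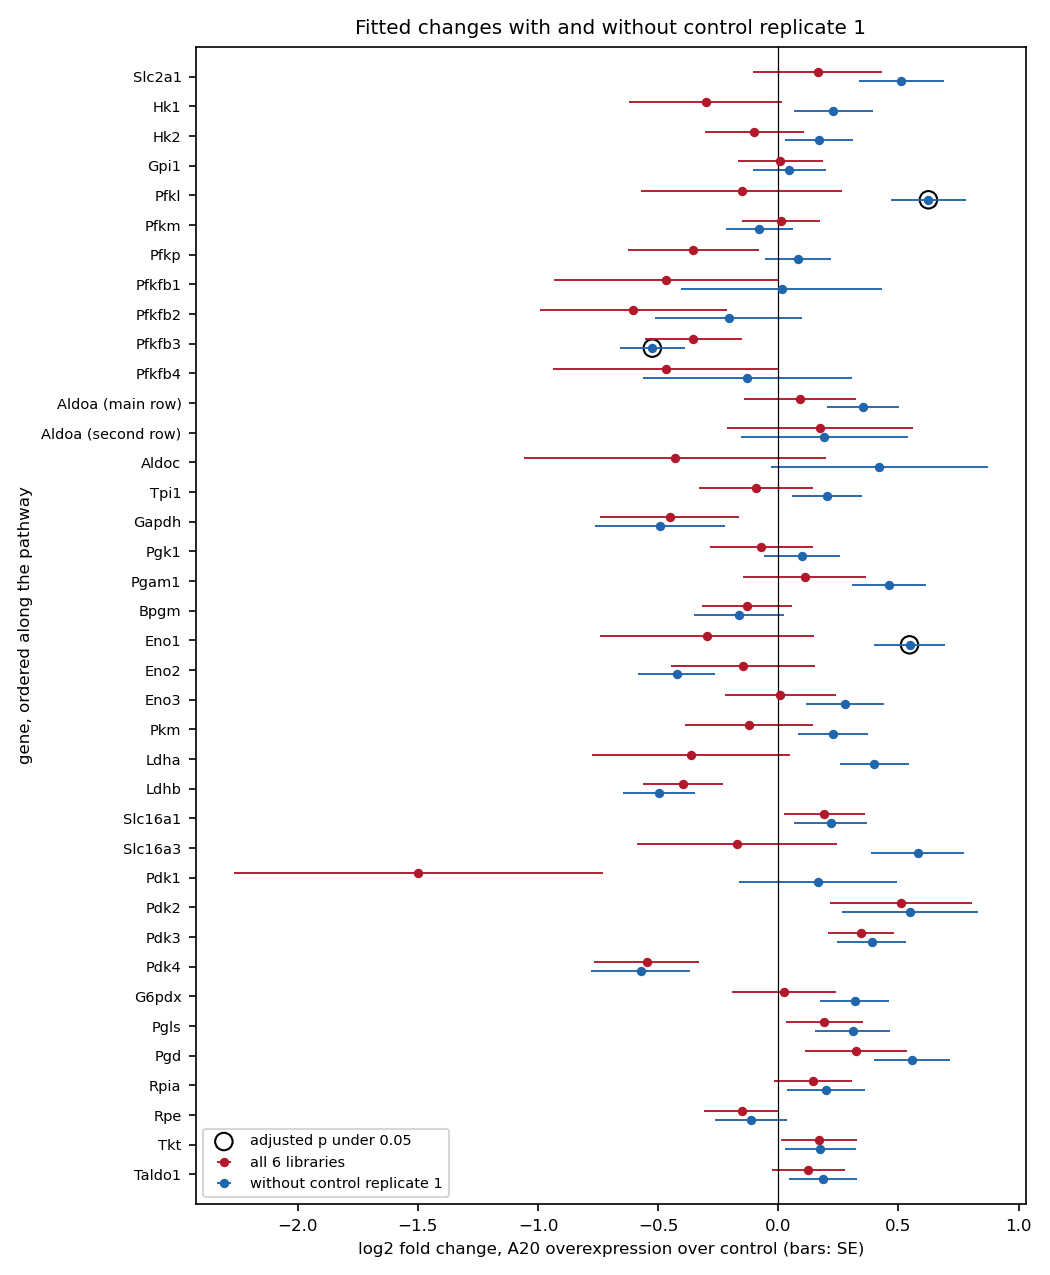
Fitted log2 fold change of A20 overexpression over control for each member row, with its standard error as a bar, over all 6 libraries (red) and over the 5 without control replicate 1 (blue). Circles mark an adjusted p under 0.05, which Pfkl, Pfkfb3 and Eno1 reach in the 5-library fit and no row reaches in the 6-library fit.

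Control replicate 1 exceeded each of the other 5 libraries in 25 of the 38 rows (65.8%), beside 43.2% of the genes that averaged 1 CPM or more. It lay below all others in 1 row, Eno2 (21.5% of all such genes), and within their range in 12. The median ratio of control replicate 1 to the mean of the other 5 was 1.46, a log2 ratio of 0.55, beside 0.15 over all genes. In 11 rows it was at least 2-fold the mean of the others. The widest gap was that of Pdk1, whose product phosphorylates and inactivates pyruvate dehydrogenase, at 7.63-fold. Eno1 followed among the abundant genes at 2.90-fold, with Ldha at 2.84-fold, Pfkl at 2.59-fold and Slc16a3, the lactate exporter MCT4, at 2.56-fold. The markers of steroid-making Leydig cells were high in the same library, and their part in these values was not tested.

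Promoters of these members are shown because many glycolytic genes are known targets of hypoxia-inducible factor, which binds ACGTG or GCGTG, and of factors that bind the E-box CACGTG. The windows were the 250 bases before a RefSeq start site (GRCm38.p6). Where the table holds several for a gene (3 for Eno1, 2 for Ldha and 2 for Pdk1), the one nearest to the gene's start in the count table was taken, which for Ldha lies 4329 bases from it. They are printed 5′ to 3′ on the gene's strand, with matches on either strand in capitals. The Pfkl window is cut to the stretch outside annotated exons. Of the 37 genes, all matched the RefSeq table by symbol.
Pfkl, chr10:78009808-78010004, minus strand: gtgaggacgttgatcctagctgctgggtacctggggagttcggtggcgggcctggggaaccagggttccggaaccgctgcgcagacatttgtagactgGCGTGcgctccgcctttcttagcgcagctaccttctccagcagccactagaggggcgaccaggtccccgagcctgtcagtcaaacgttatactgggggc
Eno1, chr4:150236458-150236707, plus strand: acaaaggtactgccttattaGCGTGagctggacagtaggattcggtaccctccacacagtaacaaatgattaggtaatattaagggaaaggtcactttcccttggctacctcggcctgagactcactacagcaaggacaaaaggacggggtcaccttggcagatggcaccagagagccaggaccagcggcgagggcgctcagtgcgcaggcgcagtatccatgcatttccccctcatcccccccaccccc
Ldha, chr7:46845554-46845803, plus strand: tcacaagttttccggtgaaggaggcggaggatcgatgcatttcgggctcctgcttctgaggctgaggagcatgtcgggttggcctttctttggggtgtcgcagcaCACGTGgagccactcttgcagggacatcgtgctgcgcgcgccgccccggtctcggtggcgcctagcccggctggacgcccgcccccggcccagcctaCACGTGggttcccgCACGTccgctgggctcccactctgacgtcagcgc
Pdk1, chr2:71872974-71873223, plus strand: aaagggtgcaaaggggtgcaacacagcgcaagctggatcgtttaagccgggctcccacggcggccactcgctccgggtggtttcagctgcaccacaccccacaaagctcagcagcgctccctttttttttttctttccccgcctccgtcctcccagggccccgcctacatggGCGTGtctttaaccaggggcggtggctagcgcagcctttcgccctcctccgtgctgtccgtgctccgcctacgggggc

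ACGTG or GCGTG occurred on either strand in the windows of 29 of the 37 genes (78.4%), beside 38.6% of all 32851 windows in the table and 56.0% of the 11937 windows whose genes averaged 1 CPM or more. The median GC content was 59.2% in the members' windows, 52.4% in all windows and 60% in those of the expressed genes. GCGTG was in 22 members' windows (59.5%, beside 28.2% of all) and ACGTG in 11 (29.7%, beside 16.6%). The E-box, which contains ACGTG on both strands, was in 4 (10.8%, beside 6.02%), and the Ldha window holds 2 of them. Each motif on its own was set only beside all windows, whose GC content was lower than that of the members' windows. Members had 1 window each, whereas the backgrounds counted every window of a gene. These are matches of letters, and no binding was measured.

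Glucose enters through Slc2a1, the transporter GLUT1. Its level was 94.0, 35.7 and 58.2 CPM in the controls and 75.1, 63.7 and 65.6 CPM in the A20 libraries. The A20 libraries lay above control replicates 2 and 3 and below control replicate 1. The log2 fold change was 0.51 ± 0.18 (SE) over 5 libraries (edgeR adjusted p = 0.102) and 0.16 ± 0.27 over 6 (adjusted p = 0.872). Hexokinase traps glucose in the cell by phosphorylation, and Hk2, its inducible form, was the more abundant per length. Hk2 stood at 168, 83.0 and 106 CPM in the controls and at 106, 107 and 112 CPM in the A20 libraries, which overlapped with control replicate 3. Hk1, the housekeeping form, ranged from 26.6 CPM in control replicate 2 to 78.8 CPM in control replicate 1. Gpi1, which turns glucose 6-phosphate into fructose 6-phosphate, was nearly level at 665, 609 and 517 CPM in the controls and 575, 641 and 573 CPM in the A20 libraries (log2 fold change over 5 libraries 0.05 ± 0.15, edgeR adjusted p = 0.898).

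Phosphofructokinase catalyses the committed step of glycolysis, and its 3 subunit genes did not follow each other. Pfkl (ENSMUSG00000020277) stood at 352, 83.9 and 119 CPM in the controls and at 145, 157 and 176 CPM in the A20 libraries. Every A20 library was above control replicates 2 and 3, and every one was below control replicate 1. Over 5 libraries the control mean was 101.4 ± 24.7 CPM (SD, n = 2). The A20 mean was 159 ± 15.3 CPM (SD, n = 3), and the log2 fold change was 0.62 ± 0.16 (SE), a 1.54-fold rise (edgeR adjusted p = 0.0312). Over all 6 it was -0.15 ± 0.42 (adjusted p = 0.925). The muscle-type subunit Pfkm, the most abundant of the 3 per length outside control replicate 1, was at 113, 123 and 130 CPM in the controls and at 112, 129 and 128 CPM in the A20 libraries, with overlapping groups and a log2 fold change of -0.08 ± 0.14 over 5 libraries (edgeR adjusted p = 0.793). By counts Pfkl was above Pfkm in each A20 library and below it in control replicates 2 and 3. The order per length rests on the deposited gene lengths, 6675 bases for Pfkl and 3340 for Pfkm. The platelet-type Pfkp lay between 73.7 and 83.1 CPM in 5 libraries and at 169 CPM in control replicate 1. Pfkm overlaps Senp1 (32.1 to 80.0 CPM) and Pfkp overlaps Pitrm1 (103 to 193 CPM) on the opposite strand, and with the strand setting of the counting not stated their reads cannot be told apart there.

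The bifunctional PFKFB enzymes make and degrade fructose 2,6-bisphosphate, the strongest activator of phosphofructokinase. Pfkfb3 (ENSMUSG00000026773), the form with the highest kinase activity, was by far the most abundant of the 4. It stood at 98.6, 142 and 133 CPM in the controls and at 101.4, 93.9 and 98.4 CPM in the A20 libraries. Control replicates 2 and 3 were above all A20 libraries, whereas control replicate 1 lay among them. Over 5 libraries it fell. The control mean was 137 ± 6.46 CPM (SD, n = 2) and the A20 mean 97.9 ± 3.78 CPM (SD, n = 3), a log2 fold change of -0.52 ± 0.14 (SE; edgeR adjusted p = 0.0348). Over 6 libraries the value was -0.35 ± 0.20 (adjusted p = 0.585). Pfkfb1, Pfkfb2 and Pfkfb4 ranged from 1.81 to 17.0 CPM, all highest in control replicate 1, and their groups overlapped in both comparisons. Pfkfb1 overlaps Apex2 and Pfkfb2 overlaps Yod1 on the opposite strand, both more abundant than the member.

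Aldolase splits fructose 1,6-bisphosphate into trioses, and nearly all of its signal lay in 1 row of Aldoa. That row (ENSMUSG00000030695, chr7:126795234-126800751) stood at 1522, 796 and 928 CPM in the controls and at 1038, 1225 and 1111 CPM in the A20 libraries. The A20 libraries were above control replicates 2 and 3 and below control replicate 1, with a log2 fold change of 0.35 ± 0.15 over 5 libraries (edgeR adjusted p = 0.182). The neighbouring row under the same symbol (ENSMUSG00000114515, chr7:126800790-126809108) was at 6.65, 3.07 and 8.67 CPM and at 6.62, 7.09 and 6.62 CPM, so the groups overlapped. Aldoc, the brain-type form, ranged from 2.42 to 14.9 CPM and was highest in control replicate 1. Triose phosphate isomerase, encoded by Tpi1, interconverts both trioses. Its level was 1253, 648 and 705 CPM in the controls and 727, 826 and 837 CPM in the A20 libraries, which again fell between control replicate 1 and the other 2 controls (log2 fold change over 5 libraries 0.20 ± 0.15, edgeR adjusted p = 0.446).

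Glyceraldehyde 3-phosphate dehydrogenase, encoded by Gapdh and often used as a reference transcript, was low in its own row. The Gapdh row (ENSMUSG00000057666) held 29.0, 18.7 and 39.2 CPM in the controls and 27.2, 18.3 and 17.1 CPM in the A20 libraries, and ranked 28 of 38 members by FPKM. The groups overlapped, with a log2 fold change of -0.49 ± 0.27 over 5 libraries (edgeR adjusted p = 0.314). Transcripts of 86 other genes, 82 of them annotated as pseudogenes, aligned to a Gapdh transcript at 95% identity or more over at least 500 bases. One of them, the processed pseudogene Gm13394 (chr2:28933610-28934609, 99.9% identity over 1000 bases), held 590, 527 and 638 CPM in the controls and 751, 864 and 778 CPM in the A20 libraries. These were all far above the Gapdh row, and every A20 library was above every control (log2 fold change 0.46 ± 0.17 over 6 libraries, edgeR adjusted p = 0.455, and 0.42 ± 0.15 over 5, adjusted p = 0.110). With all copies added, Gapdh summed to 732, 568 and 721 CPM in the controls and to 813, 920 and 826 CPM in the A20 libraries. How the authors assigned reads that match several genes is not stated, so the level of the Gapdh transcript cannot be read from its own row. Iffo1, which overlaps Gapdh on the opposite strand, was at 22.2 to 40.0 CPM, as high as the row itself.

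**Figure D3:**
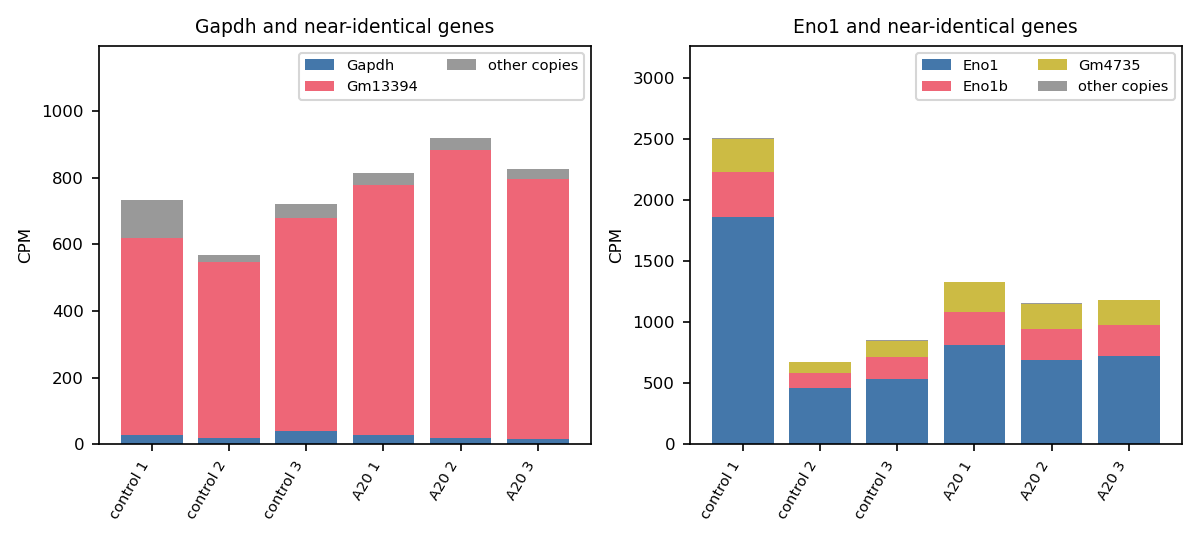
Stacked CPM of Gapdh (left) and Eno1 (right) with the genes whose transcripts are near-identical to theirs, in each library. The Gm13394 row makes up most of the Gapdh stack in every library, and Eno1b and Gm4735 add to Eno1 in every library.

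The next steps yield ATP and rearrange the phosphate. Pgk1, phosphoglycerate kinase, had the highest FPKM of the member rows as deposited, a ranking that does not count the Gm13394 row towards Gapdh. It stood at 1364, 1017 and 786 CPM in the controls and at 969, 999 and 1008 CPM in the A20 libraries, which lay between control replicates 2 and 3 (log2 fold change over 5 libraries 0.10 ± 0.16, edgeR adjusted p = 0.772). Pgam1, the phosphoglycerate mutase, was at 579, 243 and 334 CPM and at 382, 423 and 408 CPM. Its A20 libraries were above control replicates 2 and 3, but the log2 fold change of 0.46 ± 0.15 over 5 libraries did not pass (edgeR adjusted p = 0.0928). Bpgm, which makes 2,3-bisphosphoglycerate, varied little, from 16.7 to 19.5 CPM, and each A20 library was below each control by a small margin (log2 fold change over 6 libraries -0.13 ± 0.19, edgeR adjusted p = 0.847).

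Enolase produces phosphoenolpyruvate and has 3 isoform genes here. Eno1 (ENSMUSG00000063524) stood at 1862, 460 and 532 CPM in the controls and at 809, 688 and 726 CPM in the A20 libraries. As with Pfkl, the A20 libraries sat between control replicate 1 above and the other controls below. Over 5 libraries the control mean was 496 ± 51.0 CPM (SD, n = 2). The A20 mean was 741 ± 62.2 CPM (SD, n = 3), with a log2 fold change of 0.55 ± 0.15 (SE), a 1.46-fold rise (edgeR adjusted p = 0.0421). Over all 6 the value was -0.30 ± 0.44 (adjusted p = 0.856). With offsets for GC content and length the 5-library change was 0.32 and no longer passed (adjusted p = 0.202). Eno1 has 4 near-identical genes, of which Eno1b (annotated as protein coding, 99.5% identity over 1736 bases) and the processed pseudogene Gm4735 (99.6% over 1302 bases) held many counts. Eno1b was at 372, 128 and 182 CPM and at 273, 259 and 247 CPM, and Gm4735 at 273, 84.4 and 136 CPM and at 246, 207 and 209 CPM. In both rows, as in Eno1, the A20 libraries sat between control replicate 1 and the other controls. Both passed over 5 libraries (log2 fold changes 0.72 and 0.98, edgeR adjusted p = 0.0153 and 0.00525). Over 6 they were at 0.24 and 0.47 (adjusted p = 0.824 and 0.652), above 0 where Eno1 was below. With all copies added, Eno1 changed by 0.65 over 5 libraries (adjusted p = 0.0226) and by -0.08 over 6 (adjusted p = 0.961). How reads that match several genes were assigned is not stated, so these calls cannot be taken as separate from that of Eno1.

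Eno2, the neuronal form, was the reverse in order. Its level was 109, 184 and 241 CPM in the controls and 145, 191 and 149 CPM in the A20 libraries, so control replicate 1 was the lowest of the 6 and the groups overlapped (log2 fold change over 5 libraries -0.42 ± 0.16, edgeR adjusted p = 0.133). Eno3, the muscle form, ranged from 58.2 to 120 CPM with overlapping groups.

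Pyruvate kinase and lactate dehydrogenase close the pathway. Pkm stood at 2267, 1114 and 1137 CPM in the controls and at 1231, 1417 and 1399 CPM in the A20 libraries, which were above control replicates 2 and 3 (log2 fold change over 5 libraries 0.23 ± 0.15, edgeR adjusted p = 0.391). Ldha, the subunit that favours lactate formation, was at 1327, 396 and 376 CPM in the controls and at 517, 513 and 537 CPM in the A20 libraries. Here too the A20 libraries, close to each other, lay above control replicates 2 and 3 and far below control replicate 1, and the log2 fold change of 0.40 ± 0.14 over 5 libraries did not pass (edgeR adjusted p = 0.112). Ldhb, the heart-type subunit, was at 48.2, 55.9 and 54.8 CPM in the controls and at 37.3, 41.1 and 42.3 CPM in the A20 libraries. Each A20 library was below each control, control replicate 1 included, which over 6 libraries held for 3 members (Bpgm, Ldhb and Pdk4) and for 9% of all genes. The log2 fold change of Ldhb was -0.40 ± 0.17 over 6 libraries (edgeR adjusted p = 0.486) and -0.50 ± 0.15 over 5 (adjusted p = 0.0634).

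Lactate leaves the cell through monocarboxylate transporters. Slc16a1, encoding MCT1, was the more abundant per length, at 272, 259 and 212 CPM in the controls and 287, 253 and 305 CPM in the A20 libraries, with overlapping groups (log2 fold change over 5 libraries 0.22 ± 0.15, edgeR adjusted p = 0.434). Slc16a3, the high-capacity exporter of glycolytic cells, was at 66.1, 15.8 and 23.5 CPM and at 34.0, 26.8 and 28.9 CPM. Its A20 libraries lay between control replicate 1 and the other controls, and the log2 fold change of 0.58 ± 0.19 over 5 libraries did not pass (edgeR adjusted p = 0.0928).

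The 4 pyruvate dehydrogenase kinases act on the same complex but are regulated separately, and their genes differed in order here. Pdk3, the most abundant per length, stood at 57.9, 48.3 and 48.6 CPM in the controls and at 64.8, 62.8 and 67.3 CPM in the A20 libraries. Each A20 library was above each control, as for Pdk2 among the members and for 7.57% of all genes over 6 libraries. The log2 fold change of Pdk3 was 0.34 ± 0.14 over 6 libraries (edgeR unadjusted p = 0.0347, adjusted p = 0.475) and 0.39 ± 0.14 over 5 (adjusted p = 0.127). Pdk4, the form induced by fasting and fatty acids, was at 24.2, 26.6 and 20.2 CPM in the controls and at 14.9, 18.5 and 15.04 CPM in the A20 libraries, and the groups did not overlap. Its log2 fold change was -0.55 ± 0.22 over 6 libraries (edgeR unadjusted p = 0.0342, adjusted p = 0.475) and -0.57 ± 0.21 over 5 (adjusted p = 0.114). Pdk2 was low, from 4.81 to 9.65 CPM, and higher in each A20 library than in each control (log2 fold change over 6 libraries 0.51 ± 0.30, adjusted p = 0.588). Pdk1, a known target of hypoxia-inducible factor, was at 91.0, 5.92 and 16.1 CPM in the controls and at 13.5, 9.58 and 14.5 CPM in the A20 libraries, so that only control replicate 1 stood out and the remaining 5 libraries overlapped.

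Shares of an enzyme family within a library do not depend on library scaling. They were taken from FPKM, the authors' values per gene length, in 8 families. The size of a share depends on these lengths. Counts of near-identical genes, such as Eno1b and Gm4735 for Eno1, were not included. Pdk3 made up 52.3%, 65.7% and 66.0% of Pdk FPKM in the controls and 75.1%, 72.0% and 75.8% in the A20 libraries, higher in all 3. Pdk4 made up 16.0%, 26.4% and 20.1% and then 12.6%, 15.5% and 12.4%, lower in all 3. Each reached p = 0.1 in the two-sided exact permutation test, the smallest that 3 against 3 allows, and 0.9 after adjustment over the 18 shares tested. No share could therefore pass 0.05 in this design. Control replicate 1 stood apart in this family too: Pdk1 held 27.1% there and 2.65% to 7.21% in the other libraries. The Pdk3 share was higher in the A20 libraries by 12.9 percentage points with control replicate 1 and by 8.42 without it.

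In each of the other families, too, at least 1 share of control replicate 1 lay outside the range of the remaining libraries. Pfkl held 53.2% of phosphofructokinase FPKM in it, 22.8% and 28.5% in the other controls, and 35.4%, 34.7% and 37.3% in the A20 libraries. The share of Eno1 was 79.0% in control replicate 1, 50.8% and 53.9% in the other controls, and 65.6%, 57.8% and 64.4% in the A20 libraries. Ldhb supplied 7.11% of lactate dehydrogenase FPKM in control replicate 1, 22.9% and 23.5% in the other controls, and 13.2%, 14.5% and 14.3% in the A20 libraries. In all 3 families the A20 libraries lay between control replicate 1 and the other controls. Without control replicate 1 the shares of Pfkl and Eno1 were higher by 10.1 and 10.2 percentage points and that of Ldhb was lower (a difference of -9.27). Each was at the smallest p that 2 against 3 allows (exact permutation test, p = 0.2, and 0.514 after adjustment over the 18 shares tested). The shares of Pfkm, Eno2, Pdk3 and Pdk4 also reached that p.

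**Figure D4:**
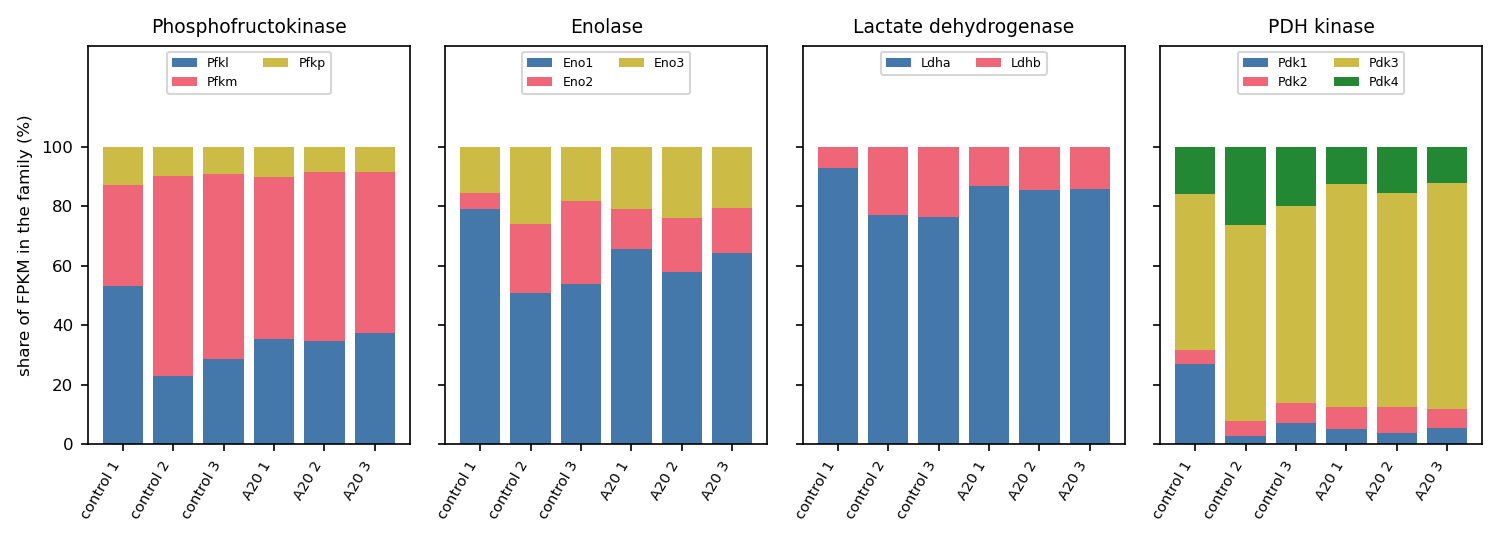
Share of each isoform gene in the FPKM of its family, in percent, for phosphofructokinase, enolase, lactate dehydrogenase and the pyruvate dehydrogenase kinases, in each of the 6 libraries. The A20 libraries lie between control replicate 1 and the other controls for Pfkl, Eno1 and Ldhb, and above all controls for Pdk3.

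The oxidative branch of the pentose phosphate pathway makes NADPH in a pair of dehydrogenase steps. G6pdx, glucose 6-phosphate dehydrogenase and the entry to the branch, stood at 109, 56.2 and 61.3 CPM in the controls and at 73.1, 80.4 and 71.3 CPM in the A20 libraries. Pgls, the lactonase, was at 51.9, 33.2 and 42.0 CPM and at 45.4, 47.8 and 49.7 CPM. Pgd, 6-phosphogluconate dehydrogenase, was at 151, 85.7 and 94.4 CPM and at 110, 150.3 and 146 CPM. In all 3 genes the A20 libraries were above control replicates 2 and 3 and below control replicate 1. Over 5 libraries Pgd was the nearest to the threshold without passing it, with a log2 fold change of 0.56 ± 0.16 (SE; edgeR adjusted p = 0.0528). G6pdx reached 0.32 ± 0.14 (adjusted p = 0.209) and Pgls 0.31 ± 0.16 (adjusted p = 0.257). G6pdx overlaps Ikbkg on the opposite strand, which was at 43.2 to 62.1 CPM.

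The non-oxidative branch shuffles carbon between sugars and varied less. Rpia, ribose 5-phosphate isomerase, was at 42.6, 37.4 and 32.4 CPM in the controls and at 39.4, 38.8 and 45.0 CPM in the A20 libraries. Rpe, ribulose phosphate epimerase, was at 84.4, 78.1 and 64.1 CPM and at 70.2, 67.5 and 65.0 CPM, with overlapping groups. Tkt, transketolase, was at 379, 322 and 361 CPM and at 353, 425 and 406 CPM, also overlapping. Taldo1, transaldolase, was at 268, 208 and 225 CPM and at 237, 274 and 245 CPM, with the A20 libraries above control replicates 2 and 3. Over 5 libraries the log2 fold changes of these 4 genes ran from -0.11 for Rpe to 0.20 for Rpia, and none passed. The 7 pentose phosphate rows summed to 1086, 821 and 880 CPM in the controls and to 928, 1083 and 1028 CPM in the A20 libraries. By comparison the 21 rows from uptake to lactate dehydrogenase, without the PFKFB genes, summed to 12160, 6071 and 6263 CPM and to 7128, 7674 and 7513 CPM. In both sums the A20 libraries were above control replicates 2 and 3 and below control replicate 1. The sum from uptake to lactate dehydrogenase leaves out the near-identical genes of Gapdh and Eno1, such as Gm13394 and Eno1b.

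Comparing levels between genes needs a length, and FPKM uses the deposited gene length. That length was 2244 bases for Pgk1, 5001 for Pkm and 5379 for Eno1, and was not checked against the transcripts expressed here. The order below depends on it, and by counts Pkm was the highest member row in every library. By mean FPKM over the 5 libraries without control replicate 1, with each gene read from its own row, Pgk1 was highest at 433, followed by Aldoa at 355, Tpi1 at 276, Pkm at 256, Pgam1 at 198, Ldha at 143, Eno1 at 121 and Taldo1 at 111. The lowest were Pfkfb4 at 0.560 and Pfkfb1 at 0.638. By counts, 17 rows had a mean of at least 100 CPM over these libraries, 15 lay from 10 to under 100 and 6 were under 10.

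Genes around the pathway were read from lists chosen with earlier results of these data known. None of their genes passed over 6 libraries, so the counts are those over 5, where 1.92% of all genes were called higher and 2.68% lower. None of the 6 tested among the other hexose transporters and hexokinases passed. The most abundant was Adpgk, an ADP-dependent glucokinase, at 52.1 to 68.0 CPM in the 6 libraries. Slc2a3, the transporter GLUT3, stayed under 1 CPM. All 10 genes of the pyruvate dehydrogenase complex and the pyruvate carriers were tested and none passed (median log2 fold change -0.18), with Pdha1, the catalytic subunit that the Pdk enzymes phosphorylate, at 154 to 167 CPM. In the NADPH and ribose phosphate list 0 of 8 passed. Its most abundant gene, Me1, the cytosolic malic enzyme that also yields NADPH, stood at 622, 170 and 140 CPM in the controls and at 198, 184 and 190 CPM in the A20 libraries. Control replicate 1 was far above the rest, and the A20 libraries were above control replicates 2 and 3 (log2 fold change 0.26 ± 0.15, edgeR adjusted p = 0.327).

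The list counts that follow stand beside 1.92% of all genes called higher and 2.68% called lower over 5 libraries. Of 6 tested genes of gluconeogenesis and the glycerol phosphate branch, 1 rose and 5 did not pass. Pcx, pyruvate carboxylase, was at 89.6, 39.3 and 52.8 CPM in the controls and at 65.2, 73.8 and 71.4 CPM in the A20 libraries (log2 fold change 0.58 ± 0.16, edgeR adjusted p = 0.0430). Among 6 tested lactate transport partners and regulators, 1 rose. Myc, a transcription factor known to activate glycolytic genes, was at 122, 38.1 and 49.8 CPM and at 73.5, 67.0 and 82.1 CPM (log2 fold change 0.73 ± 0.16, adjusted p = 0.0151). Both genes had the same order as Pfkl and Eno1, with control replicate 1 on top and control replicates 2 and 3 lowest. Hif1a, the oxygen-regulated subunit of hypoxia-inducible factor, ranged from 262 to 328 CPM with overlapping groups. Of the isoforms of muscle, liver and germ cells, 3 were tested, among them Pfkfb1, which is also a member, and 1 fell. This was Gapdhs, the sperm form of Gapdh, at 2.02, 3.42 and 5.997 CPM in the controls and 1.12, 1.85 and 1.92 CPM in the A20 libraries (log2 fold change -1.55 ± 0.41, edgeR adjusted p = 0.0388). Pgk2, Aldoart1 and Ldhal6b of that list had no count in any library.

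Markers of cell types were read beside these values. The Leydig cell list was nearly absent outside control replicate 1: Hsd3b1, Cyp17a1 and Lhcgr had no count in the other 5 libraries, Cyp11a1 was at 0 in 4 of them, and Hsd17b3 was at 0 in all 6. In control replicate 1 Cyp11a1 was at 851 CPM and Star at 497 CPM. The summed Sertoli cell markers were 308 CPM in control replicate 1 and 133 to 183 CPM elsewhere, with Sox9 and Fshr at 0 in all libraries. Germ cell markers summed to 9.21 to 13.7 CPM, with Dazl and Tnp1 at 0. Macrophage markers summed to 6.25 CPM in control replicate 1 and to 24.0 to 43.9 CPM in the others, with Adgre1 and Ptprc at 0, and endothelial markers to 36.7 CPM and to 3.31 to 5.11 CPM. Over the 5 libraries without control replicate 1, the summed markers of each of the 5 cell types overlapped between the groups. Of their tested genes 1 passed in that comparison: Clu, of the Sertoli cell list, fell and was at 221, 22.9 and 31.1 CPM in the controls and at 9.10, 13.3 and 11.1 CPM in the A20 libraries (log2 fold change -1.30 ± 0.21, edgeR adjusted p = 0.00288). Of all genes, 2.68% were called lower in that comparison. The part of Clu in the members' values was not tested.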

How the data were processed

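Counts were used as deposited. They are whole-number counts for 54532 genes, and the deposited FPKM equals the count over gene length and a library size scaled by the authors. Per the submitters' processing notes the build was GRCm38 (mm10). Aligner, counter and strand handling are not given in the sources used here. The members and lists were chosen with earlier results of these data known. The main test was edgeR 4.0.16 (R 4.3.3) with TMM factors, filterByExpr by group, robust quasi-likelihood F tests and p-values adjusted by Benjamini-Hochberg across all genes that passed the filter, with group as the only term, over 6 libraries and over 5. The standard error is the log2 fold change over the square root of F. Only the edgeR fits were tested on simulated counts, which had the same dispersion for all genes and no library that stood apart. A value in every library is given for members past the threshold, the most abundant isoform of each step and the pentose phosphate genes, and for some others. Alternatives were upper-quartile or RLE factors, no factors (library size alone), other filters, DESeq2 1.42.0, limma-voom (limma 3.58.1), log2(FPKM + 1) and log2(FPKM + 0.1), a replicate block, no robust estimation, GC and length offsets and leaving out each library. Near-identical genes were found with BLAST+ 2.17.0 on GENCODE M21 transcripts (at least 95% over 500 bases), and adding their counts was chosen after the data were examined. Motifs were searched in Python 3.11.15.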

Additional observations from a re-analysis of the deposited data

How the results depend on the processing

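Over 6 libraries, leaving out 1 library each gave 0 to 2 members higher and 0 to 1 lower, the calls arising only without control replicate 1, and no other setting called any. Without that library the median turned from -0.11 to 0.19. Leaving out each library moved Pfkl, at -0.15, between -0.44 and 0.62, and Eno1, at -0.30, between -0.57 and 0.55, both above 0 only without control replicate 1. Pfkl was also above 0 with limma-voom (0.080), log2(FPKM + 1) (0.084), log2(FPKM + 0.1) (0.095) and the replicate block (0.088). Over 5 libraries, 2 members higher (1.92% of all genes) became 6 without a filter (2.45%), 5 with DESeq2 (2.4%), 4 with GC and length offsets (3.56%), 1 without robust estimation (1.57%) and 0 on either FPKM scale (0.454% and 0.52%). The 1 lower (2.68%) became 3 with the offsets (4.09%), 0 with the replicate block (2.86%) and 0 on either FPKM scale (0.842% and 1.2%). Leaving out 1 more library gave 0 to 8 higher and 0 to 3 lower: without control replicate 3 it was 8 and 3 (9% and 7.9% of all genes), without control replicate 2 it was 0 and 2 (1.26% and 2.25%), and without any 1 of the A20 libraries 0 and 0 (0.336% to 0.603% and 0.693% to 0.859%). Where 1 control was left, it was assumed to vary like the other group. The cause was not tested. Of the 13 alternatives on the same 5 libraries, Pfkl was called in 11, Pfkfb3 in 10 and Eno1 in 8. Same-numbered libraries deviated together at r = 0.03, 0.11 and -0.04, so the numbers were not taken to pair them. The replicate block over 5 libraries called Pfkl and Pgd, with Eno1 at 0.48 (adjusted p = 0.125) and Pfkfb3 at -0.54 (adjusted p = 0.0669). The share of Pfkl, higher by 0.93 percentage points over 6 libraries, ranged from -5.07 without control replicate 2 to 10.1 without control replicate 1 (-2.23 without control replicate 3), and that of Eno2, -3.18, from -9.94 without control replicate 1 to 1.38 without control replicate 3. No member lay at its floor in any library.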
